A study of Drosophila melanogaster with 12 samples.

Results

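The Arp2/3 complex and its direct activators of the WASP family were followed as 10 genes of Drosophila melanogaster, out of the 17737 gene identifiers counted in every library. The 10 were taken by their FlyBase symbols: Arp2, Arp3, Arpc1, Arpc2, Arpc3A, Arpc3B, Arpc4 and Arpc5 for the 7-part complex, in which Arpc3 has 2 gene copies, and SCAR and WASp for the activators. All 10 symbols matched an identifier in the files, and all 10 passed the filter on low counts in each comparison. The symbols, and no threshold on measured values, set the choice, which was made with earlier results of these data known.

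The complex starts a new actin filament as a branch on the side of an existing one. Arp2 and Arp3 resemble actin and form the base of the branch, while the other subunits hold them together and bind the mother filament. The complex is almost inactive alone and is switched on by proteins of the WASP family: SCAR, the fly WAVE protein, acts downstream of the GTPase Rac, and WASp acts downstream of Cdc42 and membrane lipids. In flies SCAR and the complex are known for the spread lamella of cultured hemocyte-like cells and for axon growth, and WASp for cell fate in sensory organs and for myoblast fusion.

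Poly(A) RNA was sequenced from 4 groups of 3 libraries. S2 is an embryonic cell line that resembles hemocytes, the blood cells of the fly. S2 cells were given dsRNA (double-stranded RNA) that targets Atx2, the gene of the RNA-binding protein Ataxin-2; their controls are labelled as having no treatment, so receiving any dsRNA and lowering Atx2 cannot be told apart. Whole brains of 3rd instar larvae carried a hairpin (shRNA) against Atx2 driven by elav gal4, a driver used for neurons, against brains labelled as having no treatment, with no driver or hairpin named for these controls. A whole brain also holds glia and progenitor cells, so in these bulk samples fewer cells of a type and less RNA per cell cannot be told apart.

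Libraries held 14944637 to 20400465 counts with dsRNA, 25994555 to 29020252 in S2 control cells, 26442727 to 28086056 with shRNA and 29754856 to 31579528 in control brains. Atx2 itself was at 149, 55.3 and 166 CPM (a gene's counts relative to the scaled library size) with dsRNA, against 242, 218 and 226 CPM in S2 control cells. It was at 92.4, 97.8 and 104 CPM in shRNA brains, against 187, 195 and 197 CPM in control brains. It fell in brain (log2 fold change -0.98 ± 0.08, SE, edgeR adjusted p = 0.00271) and did not pass the threshold in S2 cells (-0.89 ± 0.35, adjusted p = 0.0613), although the groups did not overlap in either system. In S2 cells Atx2 passed under 8 of 15 alternatives, with log2 values between -1.178 and -0.407. The labels do not state whether replicates are separate cultures or animals; p-values therefore cover the spread of these libraries alone, which may be technical. The brain libraries differed in RNA of other tissues: the summed level of 6 gut markers was 2293 CPM in shRNA library 1 and at most 3.53 CPM in the other 5, and that of 5 salivary gland markers was 1845 CPM in control library 3 and at most 28.1 CPM in the other 5. Fat body markers summed to 3213, 1403 and 94.8 CPM in the shRNA libraries, against 505, 27.4 and 303 CPM in the controls. Muscle markers summed to 296, 785 and 185 CPM in the shRNA libraries, against 54.1, 42.2 and 211 CPM. Results in brain are also given without shRNA library 1 and control library 3, which leaves the fat body and muscle RNA of shRNA library 2 in place.

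The labelled cell types could be checked with marker genes. In S2 cells the 7 hemocyte markers summed to 1227 to 1527 CPM with dsRNA and 5346 to 5779 CPM in control cells, of which the collagen gene vkg made up 1099 ± 131 CPM with dsRNA and 3978 ± 585 CPM in controls. Hml, srp, Pxn and eater were also detected. Pxn, at 3.46 to 5.13 CPM with dsRNA and 27.9 to 47.6 CPM in S2 controls, lay below control brains (66.5 to 90.9 CPM). In shRNA brains Pxn was at 108 to 168 CPM. The eater level with dsRNA (1.54 to 4.13 CPM) was below every brain library (at least 10.1 CPM), while S2 controls held 31.1 to 33.1 CPM. NimC1 and He had at most 17 counts in any S2 library, below their levels in brain. The 8 neuronal markers summed to 2019 to 2282 CPM in shRNA brains and 1965 to 2502 CPM in control brains, against 34.3 to 52.2 CPM with dsRNA and 82.2 to 112 CPM in S2 controls.

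**Figure D1:**
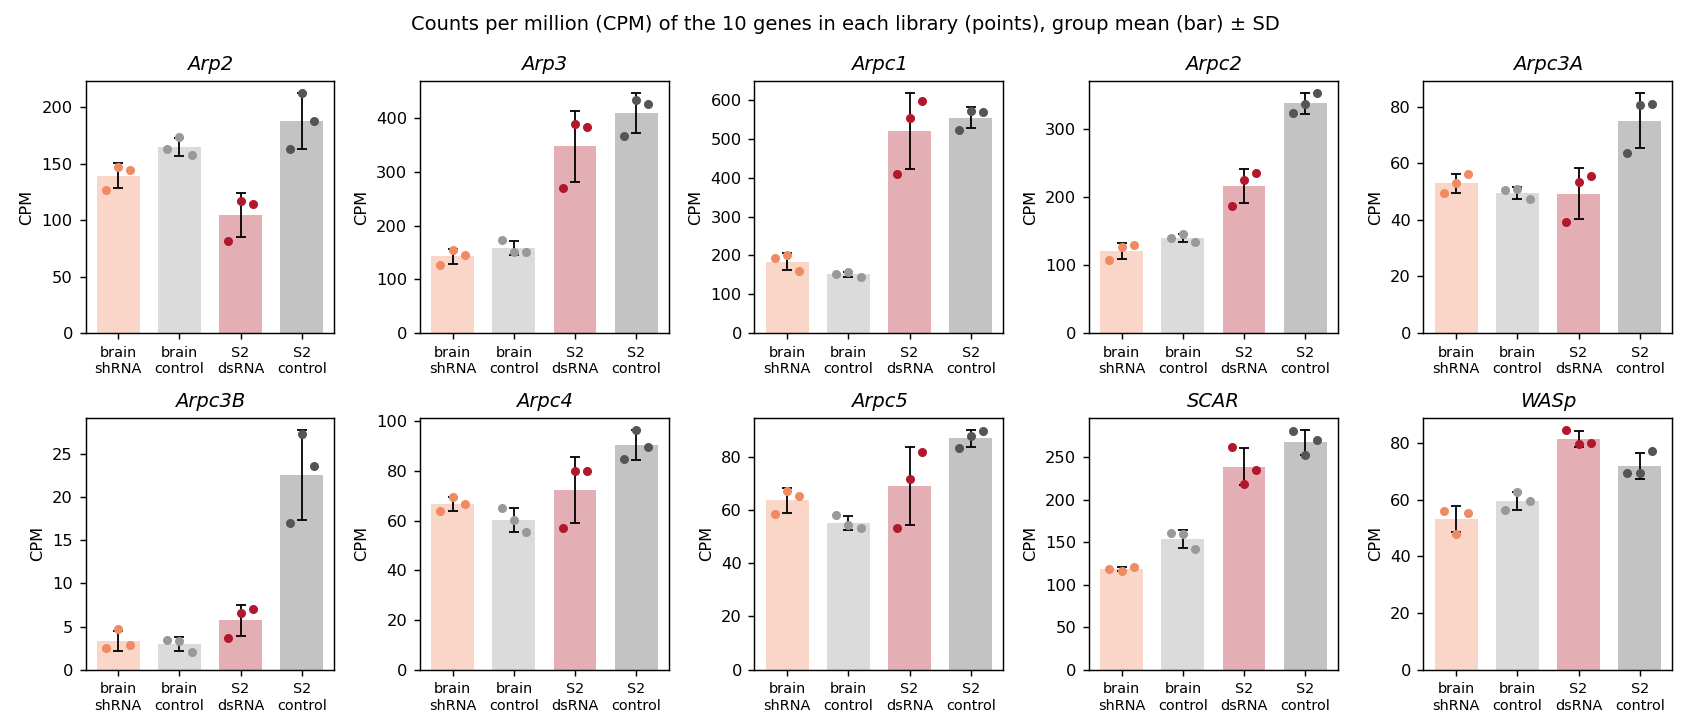
CPM (vertical axis from 0) of each of the 10 genes in every library (points), with the mean and SD of each group of 3 (bar and line). Arpc3B in S2 cells shows the widest gap, 3.67 to 7.01 CPM with dsRNA and 17.0 to 27.3 CPM in control cells, and the 3 SCAR values of shRNA brains all lie below those of control brains.

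In S2 cells with Atx2 dsRNA, 4 of the 8 complex genes fell: Arpc3B, Arp2, Arpc2 and Arpc3A. SCAR and WASp did not pass the threshold in either direction. Thus 4 of the 10 genes were called lower and 0 higher, where 26.6% of the 9058 genes tested were called lower, 28.5% higher and 55.0% in either direction (edgeR quasi-likelihood F test, Benjamini-Hochberg adjusted p under 0.05 over all genes tested). The median log2 fold change of the 10 was -0.33, against 0.04 over all genes tested. In 7 of the 10 the ranges of dsRNA and control libraries were separate, as in 63.8% of all genes tested. DESeq2 and limma-voom likewise called 4 lower and 0 higher, and 0 of the 10 were higher at an unadjusted p under 0.05. Whether the 4 lower calls exceed the 26.6% of all genes was not tested.

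Arpc3B (FBgn0065032, chromosome X, 17104571 to 17105852, minus strand, BDGP6.54 annotation) is the less abundant of the copies of the Arpc3 subunit, which bridges Arp3 and the rest of the complex. It was at 3.67, 6.53 and 7.01 CPM with dsRNA, against 17.0, 27.3 and 23.5 CPM in control cells, which is 88, 153 and 123 counts against 412, 635 and 513 counts. Every dsRNA library lay below every control library. The log2 fold change was -1.98 ± 0.29 (SE, n = 3 each; edgeR adjusted p = 0.000791), that is, 3.95-fold lower. It was called lower under all 15 alternatives tried, with log2 values between -2.17 and -1.496.

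Arpc3A (FBgn0038369, 3R, 15834648 to 15836021, plus strand), the more abundant copy, was at 39.1, 53.3 and 55.4 CPM with dsRNA, against 63.8, 80.5 and 80.9 CPM in control cells. The groups did not overlap, and the log2 fold change was -0.61 ± 0.16 (edgeR adjusted p = 0.0142). Its call was lost without control library 3 (adjusted p = 0.0515). The changes of the copies differed by -1.37 on the log2 scale (Arpc3B minus Arpc3A) with TMM scaling, and by -1.38 with library totals alone.

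The share of Arpc3B in the pool of both copies was therefore lower with dsRNA. Per exon length it was 11.8, 14.9 and 15.3% with dsRNA, against 27.6, 32.6 and 29.4% in S2 control cells, with means of 14.01 ± 1.90% and 29.8 ± 2.56% (SD, n = 3). The 95% Wilson intervals of the 3 dsRNA libraries reached at most 17.9%, and those of the control libraries began at 25.5% or above; intervals cover counting error only. In brain the share was 6.73, 11.2 and 6.80% with shRNA, against 8.91, 8.67 and 5.93% in controls, and these groups overlapped. An exact permutation test of 3 libraries against 3 cannot go below p = 0.1 (2-sided), so the share was described and not tested. Reads that the counting could not place between the copies may be assigned in ways that the counts do not show.

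**Figure D2:**
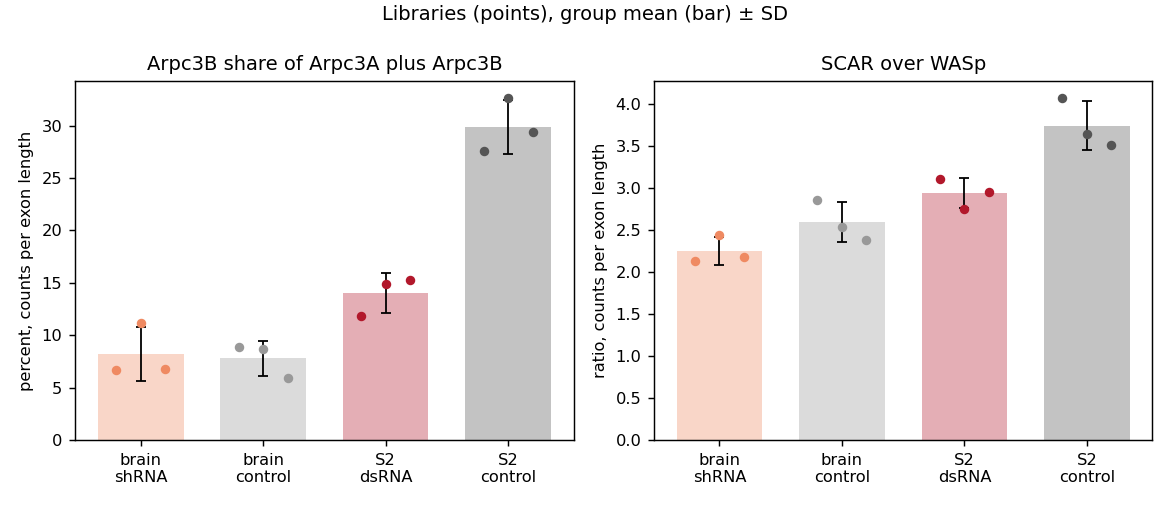
Left, the share of Arpc3B in the summed counts per exon length of Arpc3A and Arpc3B (percent); right, the ratio of SCAR to WASp counts per exon length; points are libraries, bars and lines the mean and SD of 3. The Arpc3B share averages 14.01% with dsRNA and 29.8% in S2 controls, and lies between 5.93 and 11.2% in all 6 brain libraries.

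Arp2 (FBgn0011742, X, 16548290 to 16553968, minus strand), one of the actin-like subunits at the base of the branch, was at 81.9, 116.9 and 115 CPM with dsRNA, against 163, 212.5 and 188 CPM in S2 control cells. The groups lay apart, and the log2 fold change was -0.85 ± 0.17 (edgeR adjusted p = 0.00352). Its partner Arp3 (FBgn0262716, 3L, 8113407 to 8115902, minus strand) was at 271, 389 and 384 CPM with dsRNA, against 366, 435 and 428 CPM, so the groups overlapped, and it did not pass (-0.24 ± 0.16, adjusted p = 0.241). Arp2 and Arp3 stand in the complex as 1 copy each, and a difference between their changes was not tested.

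Arpc2 (FBgn0032859, 2L, 20417057 to 20423027, plus strand) forms with Arpc4 the core that lies on the mother filament. It was at 187, 225 and 235.5 CPM with dsRNA, against 323, 337 and 353 CPM in S2 control cells, with no overlap (log2 -0.65 ± 0.12, edgeR adjusted p = 0.00257). Arpc4 (FBgn0284255, 2L, 6125132 to 6125911, plus strand) was at 56.9, 80.2 and 80.2 CPM, against 84.9, 96.6 and 89.8 CPM (log2 -0.32 ± 0.15, adjusted p = 0.102). Arpc5 (FBgn0031437, 2L, 2580292 to 2581423, plus strand), a small subunit at the rim of the complex, was at 53.2, 71.7 and 81.9 CPM, against 83.3, 87.8 and 89.6 CPM (log2 -0.34 ± 0.16, adjusted p = 0.105). Neither passed, although their groups did not overlap. Of the exon length of Arpc5, 13.4% overlaps exons of Drp1 on the other strand, a gene with 2853 to 5800 counts, and reads there cannot be told apart without a stated strand setting. Arpc1 (FBgn0001961, 2L, 13827941 to 13829741, minus strand), the propeller-shaped subunit that helps receive the activator, was at 410, 555 and 597 CPM, against 524, 573 and 569 CPM, with overlap (log2 -0.09 ± 0.15, adjusted p = 0.623).

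SCAR (FBgn0041781, 2L, 10976772 to 10982395, plus strand) was at 262, 219 and 235 CPM with dsRNA, against 281, 252 and 270 CPM in S2 control cells (log2 -0.17 ± 0.11, edgeR adjusted p = 0.239). WASp (FBgn0024273, 3R, 28824506 to 28832024, minus strand) was at 84.6, 79.6 and 79.9 CPM, against 69.2, 69.3 and 77.0 CPM; the groups did not overlap, and it had the 1 positive value of the 10 (log2 0.18 ± 0.10, adjusted p = 0.151). The ratio of SCAR to WASp per exon length was 2.94 ± 0.175 with dsRNA and 3.74 ± 0.289 in control cells (SD, n = 3), with every dsRNA library (at most 3.10) below every control library (at least 3.51).

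The subunits moved together between libraries of 1 group. The 8 complex genes were each lowest in library 1 of the dsRNA group and each lowest in library 1 of the S2 control group, while SCAR was highest in both of these libraries. In control brains all 8 were lowest in library 3, the library with salivary gland RNA, and in shRNA brains 7 of the 8 were lowest in library 1, the library with gut RNA. Within-group spread of the subunits is thus shared between genes, and their calls are not independent of each other.

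The directions in S2 cells depend on the scaling of the libraries. Scaling by the trimmed mean of M-values (TMM) was used for the values above; with upper quartile scaling the median of all genes moved by 0.18 on the log2 scale, and with library totals alone by 0.49. Relative to the median of all genes, 9 of the 10 genes were lower, with a median of -0.37; a library scaling moves all genes alike, so this relative value is the same under any of them by construction. As plain values, 9 of the 10 were negative with TMM, 7 with upper quartile scaling and 4 with library totals alone. With library totals alone Arpc3B was the 1 gene called lower (-1.496, edgeR adjusted p = 0.00233) and WASp (0.67, adjusted p = 0.000605), Arpc1 (0.39, adjusted p = 0.0465) and SCAR (0.32, adjusted p = 0.0263) were called higher. Upper quartile scaling kept Arpc3B, Arp2 and Arpc2 as lower and called WASp higher (0.36, edgeR adjusted p = 0.0134). Of all genes tested, 14.6% were called lower and 54.2% higher with library totals alone. With upper quartile scaling these shares were 20.6% and 37.6%. Beside these results, 5 of the 7 hemocyte markers (vkg, Hml, srp, Pxn and eater) lay below the range of the controls in every dsRNA library, while NimC1 (0.151 CPM with dsRNA and 0.144 CPM in controls) and He (0.465 and 0.344 CPM) overlapped; their part in the results was not tested.

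**Figure D3:**
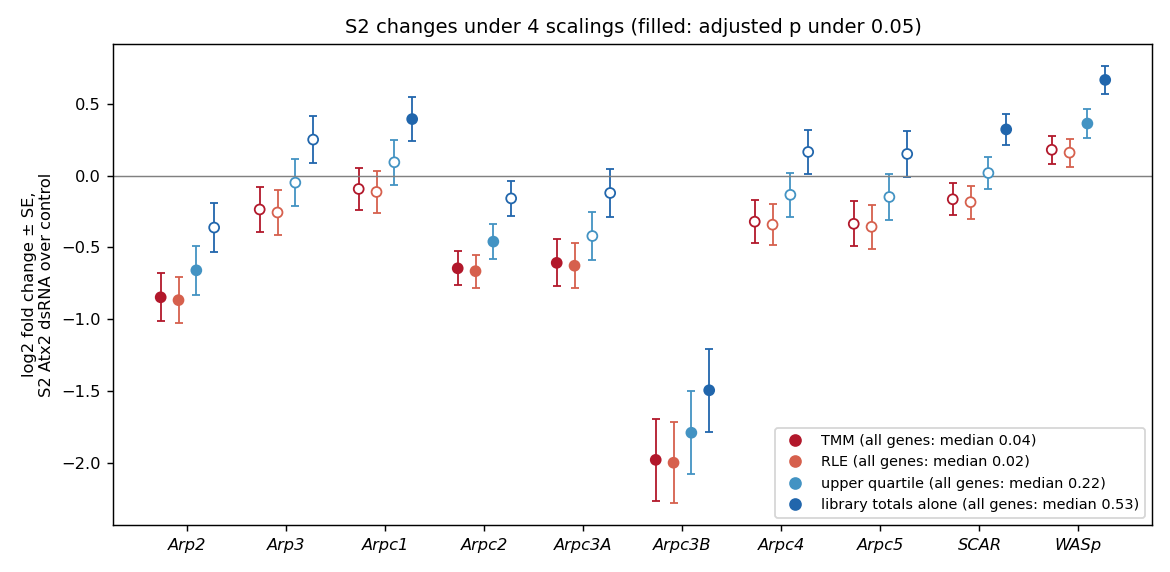
Log2 fold change of each gene in S2 cells, Atx2 dsRNA over control, with its SE (vertical axis), under 4 scalings of the libraries; filled points have an adjusted p under 0.05. The values of a gene shift together with the median of all genes, from 0.04 with TMM to 0.53 with library totals alone, and Arpc3B lies below the other 9 genes under each scaling.

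In brains with Atx2 shRNA, SCAR was the 1 gene of the 10 that passed the threshold, and it was lower than in control brains. None of the 8 complex genes passed edgeR or limma-voom, 3 of them had an unadjusted p under 0.05, and DESeq2 called 1 higher (Arpc1) and 1 lower (Arp2). Of the 10 genes 1 was called lower and 0 higher by edgeR, where 11.5% of the 10438 genes tested were called lower, 11.5% higher and 23.0% in either direction, so the share called is near the background. Without the libraries with gut or salivary gland RNA the count was again 1 lower and 0 higher, beside 4.96% and 6.78% of all genes tested. Without shRNA library 2, which held the most muscle RNA, it was 0 and 0, as it was without control library 1 or control library 2. Of all genes tested, 7.73% were called in either direction without shRNA library 2, 9.28% without control library 1 and 4.58% without control library 2. The median log2 fold change of the 10 was -0.03, against 0.01 over all genes tested. In 6 of the 10 the groups did not overlap, as in 44.5% of all genes tested.

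SCAR was at 119, 116.5 and 120.4 CPM in shRNA brains, against 161, 159 and 142 CPM in control brains. The shRNA libraries lay close together and below every control library, with means of 118.5 ± 1.93 and 153.8 ± 10.6 CPM (SD, n = 3). The log2 fold change was -0.38 ± 0.08 (edgeR adjusted p = 0.0196). The call held without both the library with salivary gland RNA and the one with gut RNA (-0.44, adjusted p = 0.0382). It was lost without control library 1 (-0.35, adjusted p = 0.0676), control library 2 (-0.34, adjusted p = 0.0861) or shRNA library 2 (-0.37, adjusted p = 0.0739). Of the exon length of SCAR, 6.1% overlaps exons of piwi on the other strand, a gene with 22 to 232 counts per library. WASp was at 55.9, 47.9 and 55.4 CPM, against 56.5, 62.8 and 59.5 CPM, and did not pass (log2 -0.17 ± 0.09, adjusted p = 0.201). The ratio of SCAR to WASp per exon length was 2.25 ± 0.168 with shRNA and 2.59 ± 0.238 in control brains, and these groups overlapped.

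Among the complex genes of the brain the actin-like subunits were on the negative side. Arp2 was at 126.7, 147 and 144 CPM with shRNA, against 163, 174 and 158 CPM in control brains, with no overlap (log2 -0.24 ± 0.09, edgeR adjusted p = 0.0873). Arp3 was at 128, 155 and 146 CPM, against 173, 151 and 150.2 CPM (-0.15 ± 0.10, adjusted p = 0.332). Arpc2 was at 106.9, 126 and 129 CPM, against 139, 145 and 133.5 CPM (-0.21 ± 0.095, adjusted p = 0.155).

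The remaining 5 complex genes of the brain had positive values, none of which passed. Arpc1 was at 193, 201 and 159 CPM with shRNA, against 151, 158 and 145 CPM in control brains (log2 0.28 ± 0.11, edgeR adjusted p = 0.0951), and it passed without shRNA library 3 (0.39, adjusted p = 0.0271). Arpc5 was at 58.5, 67.3 and 65.2 CPM, against 58.0, 54.2 and 53.2 CPM (0.21 ± 0.08, adjusted p = 0.103). For both genes every shRNA library was above every control library. Arpc4 (0.15 ± 0.08) and Arpc3A (0.10 ± 0.08) had overlapping groups. Arpc3B was low throughout, at 65, 127 and 82 counts with shRNA, against 101, 106 and 63 counts in control brains (0.17 ± 0.36), and its sign turned without shRNA library 2 (-0.15) or control library 3 (-0.04).

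Markers of several cell types differed between the brain groups beside these values. The 5 neuroblast markers summed to 150.4 to 206 CPM with shRNA and 404 to 438 CPM in control brains, and 4 of them (all but dpn) were lower without overlap. The 6 glial markers summed to 1528 to 2324 CPM with shRNA and 873 to 1185 CPM in control brains, and 5 (all but wrapper) were higher without overlap. The 7 hemocyte markers summed to 576 to 886 CPM with shRNA and 184 to 311 CPM in control brains. This sum was carried by vkg (305 ± 95.0 CPM with shRNA and 81.6 ± 24.6 CPM in controls), Hml (174 ± 60.5 and 53.3 ± 25.8 CPM) and Pxn. The other 4 overlapped: eater (16.5 ± 10.2 and 15.6 ± 6.89 CPM), NimC1 (5.77 ± 1.31 and 8.63 ± 3.01 CPM), srp (23.4 ± 7.68 and 13.2 ± 4.91 CPM) and He (27.5 ± 14.6 and 13.9 ± 6.02 CPM). The neuronal sums overlapped, but elav (336 ± 7.64 CPM with shRNA and 552 ± 62.3 CPM in controls) and fne (299 ± 23.2 and 533 ± 50.1 CPM) were lower without overlap. Rdl (209 ± 25.6 CPM with shRNA and 86.0 ± 20.0 CPM in controls), Syt1 (341 ± 28.8 and 252 ± 33.0 CPM), nSyb and ChAT were higher without overlap. None of the markers in these 4 lists was at 0. Their part in the SCAR result was not tested.

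**Figure D4:**
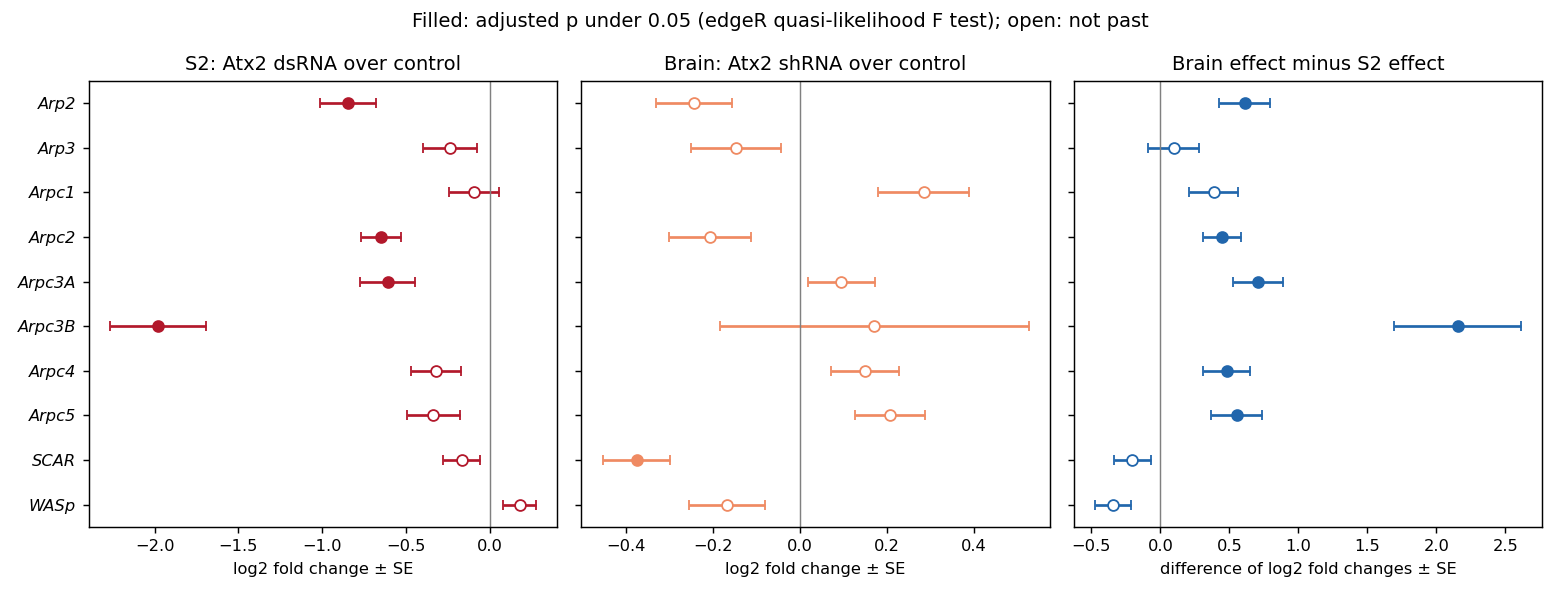
Log2 fold change with its SE (horizontal axis) of each gene in S2 cells (left), in brain (middle) and the difference of these changes (right), with axis scales that differ between panels; filled points have an adjusted p under 0.05. In S2 cells 4 complex genes are filled and lower, in brain SCAR alone is filled, and 6 complex genes are filled in the difference, led by Arpc3B at 2.15.

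Because a call in 1 system and none in the other is no test of a difference, the brain change minus the S2 change was tested in 1 fit of all 12 libraries. All 8 complex genes had a positive difference, that is, a less negative or a positive change in brain, and 6 of the 10 genes passed in that direction and 0 in the other, where 19.7% of 11176 genes passed as higher and 21.4% as lower. At an unadjusted p under 0.05, 6 were higher and 1 lower (WASp), and DESeq2 and limma-voom each called 6 higher and 1 lower. The median difference of the 10 was 0.46, against -0.10 over all genes tested. Arpc3B differed most (2.15 ± 0.46 on the log2 scale, edgeR adjusted p = 0.00333), followed by Arpc3A (0.71 ± 0.18, adjusted p = 0.00947) and Arp2 (0.61 ± 0.18, adjusted p = 0.0204). Arpc5 (0.55 ± 0.18, adjusted p = 0.0319), Arpc4 (0.48 ± 0.17, adjusted p = 0.0452) and Arpc2 (0.45 ± 0.14, adjusted p = 0.0232) passed as well. Arpc1 (0.39 ± 0.18, adjusted p = 0.106) and Arp3 (0.10 ± 0.19, adjusted p = 0.716) did not, nor did the activators WASp (-0.34 ± 0.13, adjusted p = 0.0547) and SCAR (-0.20 ± 0.14, adjusted p = 0.258).

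This difference carries the scaling of the S2 libraries. The count of genes passing as higher was 2 with upper quartile scaling (Arpc3B and Arpc3A) and 1 with library totals alone (Arpc3B, 1.68, edgeR adjusted p = 0.0119), and with either scaling SCAR and WASp passed as lower. Of all genes tested, 16.6% passed as higher and 27.2% as lower with upper quartile scaling, and 11.6% and 39.5% with library totals alone. Single libraries also decided calls: 3 of the 10 genes passed without S2 control library 2, S2 control library 3, brain control library 3, shRNA library 2 or shRNA library 3. These 3 were higher, beside 16.9 to 18.8% of all genes tested in those fits. Arpc3B passed under all 21 alternatives, Arpc3A under 20, Arp2 under 18, Arpc2 under 15, Arpc5 under 11 and Arpc4 under 8.

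With TMM scaling, control brains held less of each of the 10 genes than control S2 cells. All 10 were called lower, where 35.9% of 11176 genes were called lower, 40.6% higher and 76.4% in either direction, and the groups did not overlap for any of the 10, as for 81.3% of all genes tested. The median log2 fold change of brain over S2 controls was -0.87, against 0.10 over all genes tested. DESeq2 called 9 lower, all but Arp2, and 0 of the 10 were higher by any of the 3 tools or at an unadjusted p under 0.05. A cell line and a dissected tissue differ in much beside cell type, which cannot be told apart here.

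The size of this difference varied widely between subunits of the same complex. It was largest for Arpc3B (log2 -3.06 ± 0.34, edgeR adjusted p = 7.87e-06), Arpc1 (-2.01 ± 0.13, adjusted p = 7.10e-08), Arp3 (-1.51 ± 0.14, adjusted p = 1.12e-06) and Arpc2 (-1.42 ± 0.10, adjusted p = 1.42e-07). SCAR (-0.94 ± 0.10), Arpc5 (-0.80 ± 0.13), Arpc3A (-0.74 ± 0.13) and Arpc4 (-0.72 ± 0.12) lay in the middle. WASp (-0.41 ± 0.09, adjusted p = 0.00172) and Arp2 (-0.32 ± 0.13, adjusted p = 0.0398) differed least. The Arp2 call was lost under 13 of 22 alternatives. With library totals alone, which moved the median of all genes by 0.38, its value turned to 0.05 (adjusted p = 0.773) and WASp was no longer called (-0.03, adjusted p = 0.774).

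Levels can be compared between genes only per length, so CPM were divided by the exon length in kilobases, with all 12 libraries scaled together. In shRNA brains Arpc1 (102 ± 12.2 CPM per kb, SD, n = 3) and Arpc4 were highest and overlapped, and SCAR (36.5 ± 0.614) stood below Arpc3A (45.2 ± 3.06) with no overlap. In control brains Arpc1 (82.8 ± 3.93 CPM per kb), Arpc4 (80.3 ± 6.57) and Arp3 (75.7 ± 6.37) formed the top and overlapped in turn, followed by Arpc2 (67.0 ± 3.16) and Arp2 (57.4 ± 3.01). Arpc5 (48.9 ± 2.43), SCAR (46.8 ± 3.47) and Arpc3A (41.8 ± 1.90) came next and overlapped in turn, so the gap between SCAR and Arpc3A of shRNA brains was not present there. WASp (18.1 ± 0.972) and Arpc3B (3.59 ± 0.946) were lowest in control brains and did not overlap.

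The S2 levels were spread more widely. With dsRNA Arpc1 was highest (315 ± 54.5 CPM per kb), Arp3 (184 ± 32.7) came next, and Arpc2, Arpc4, SCAR and Arpc5 followed, each overlapping the next. Arp2 (40.2 ± 6.97) overlapped Arpc3A (46.02 ± 7.61), and Arpc3B (7.65 ± 2.31) lay below WASp (27.4 ± 1.41) with no overlap. In S2 control cells Arpc1 (335 ± 6.76 CPM per kb), Arp3 (216 ± 13.8), Arpc2 (179 ± 4.73) and Arpc4 (133 ± 5.65) stood apart from each other. SCAR (89.7 ± 7.30) overlapped Arpc5 (84.8 ± 1.20), and Arp2 (71.8 ± 7.64) overlapped Arpc3A (69.6 ± 7.18). Arpc3B (29.9 ± 6.14) and WASp (24.0 ± 1.32) were lowest in S2 control cells and overlapped. From the lowest to the highest, the mean levels of the 7 complex genes other than Arpc3B spanned 2.26-fold in shRNA brains and 1.98-fold in control brains, and 7.85-fold with dsRNA and 4.80-fold in S2 control cells.

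**Figure D5:**
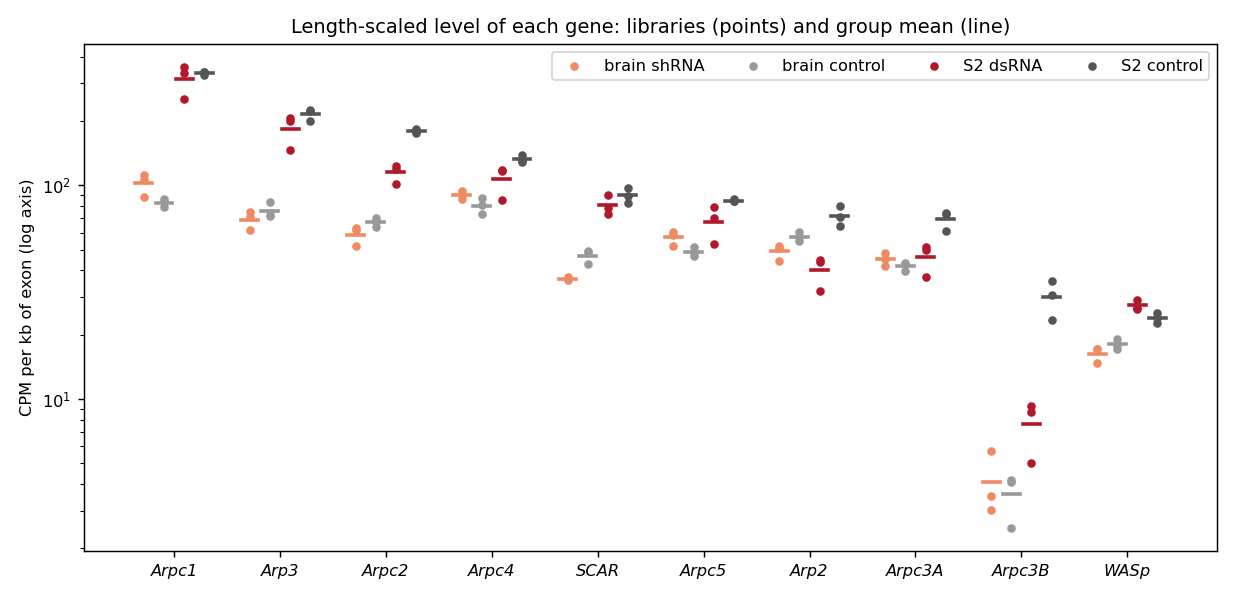
Length-scaled level of each gene (CPM per kilobase of exon, log axis) in every library (points) with the group mean (line), genes ordered by their mean in S2 control cells. The 7 complex genes other than Arpc3B span 1.98-fold in control brains and 4.80-fold in S2 control cells, and Arpc3B lies far below them in brain.

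The genes around the complex were read from 6 lists of related genes, of which 44 of 45 names matched. These lists, too, were written with earlier results of these data known. In S2 cells 15 of the 41 tested were lower with dsRNA and 3 higher, with a median log2 fold change of -0.26, where 26.6% of all genes tested were lower, 28.5% higher and their median was 0.04. In brain 14 of the 44 tested were lower with shRNA and 1 higher, with a median of -0.23, where 11.5% of all genes tested were lower, 11.5% higher and their median was 0.01. Without the libraries with gut or salivary gland RNA the brain counts were 6 lower and 0 higher, beside 4.96% and 6.78% of all genes tested. Leaving out 1 brain library gave from 2 lower (without control library 2) to 12 lower (without shRNA library 3). Of all genes tested, 1.93% and 9.65% were called lower in these fits. With library totals alone the S2 counts became 6 lower and 15 higher, beside 14.6% and 54.2% of all genes tested. The S2 directions below are therefore relative to TMM scaling.

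SCAR works inside a protein complex that keeps it off until Rac binds. Of its 4 partners 3 were lower in shRNA brains, beside 11.5% of all genes tested. They were Cyfip, the Rac-binding subunit (213.5 ± 11.9 CPM with shRNA and 303 ± 23.1 CPM in controls, log2 -0.51 ± 0.09, edgeR adjusted p = 0.0123), Hem (-0.36 ± 0.09, adjusted p = 0.0363) and Abi (-0.26 ± 0.07, adjusted p = 0.0468). Of 16 alternatives the call held in 13 for Cyfip, in 7 for Hem and in 3 for Abi. The 4th partner, HSPC300, was at 25.2 ± 2.75 CPM with shRNA and 26.1 ± 3.91 CPM in controls. In S2 cells Cyfip alone of the 4 passed, beside 26.6% of all genes called lower and 28.5% higher. Cyfip was lower (-0.49 ± 0.10, adjusted p = 0.00417, and -0.002 with library totals alone), while Hem was at 165 ± 16.02 CPM with dsRNA and 136 ± 16.2 CPM in controls (0.28 ± 0.13, adjusted p = 0.102).

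Partners of WASp include adaptors that bend membranes or recruit it. In S2 cells, of 6 tested, 4 were lower with dsRNA and 0 higher, beside 26.6% of all genes called lower and 28.5% higher. The lower genes were led by the F-BAR membrane-bending protein Cip4 (36.6 ± 5.68 CPM with dsRNA and 103 ± 11.3 CPM in controls, log2 -1.496 ± 0.15, edgeR adjusted p = 0.000132), the WASp-binding protein Vrp1, the fly WIP (-1.04 ± 0.14), and the syndapin Synd (-0.66 ± 0.09). Cip4 and Vrp1 kept the call under all 15 alternatives, and Synd under 14. In brain the SH2-SH3 adaptor dock fell to 187 ± 6.36 CPM with shRNA, against 322 ± 19.4 CPM in controls (-0.79 ± 0.08, adjusted p = 0.00423), and nwk, an F-BAR protein of synapses, rose to 137 ± 27.7 CPM, against 84.3 ± 12.4 CPM (0.70 ± 0.17, adjusted p = 0.0324), among 8 tested. Of all genes tested in brain, 11.5% were called lower and 11.5% higher. The nwk call held in 9 of 16 alternatives, and the dock call in 15.

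Among Rac and Cdc42 GTPases and their activators, 4 of 9 tested were lower with dsRNA in S2 cells and 4 of 10 were lower with shRNA in brain, with 0 higher in each, beside 26.6% and 11.5% of all genes called lower in S2 cells and in brain. In S2 cells the Rac exchange factor trio (208 ± 31.7 CPM with dsRNA and 448 ± 24.7 CPM in controls; log2 -1.11 ± 0.13, edgeR adjusted p = 0.000325), Rac2 (-0.997 ± 0.17) and Cdc42, the GTPase that opens WASp (-0.51 ± 0.10), were lower. In brain the Rac-related Mtl (-0.53 ± 0.10, adjusted p = 0.0146), Cdc42 (-0.45 ± 0.11, adjusted p = 0.0265) and Ced-12, the fly ELMO (-0.38 ± 0.07, adjusted p = 0.0159), were lower. Of 16 alternatives these brain calls held in 13 for Mtl, in 10 for Cdc42 and in 11 for Ced-12. The S2 calls of trio and Rac2 held in all 15 alternatives. That of Cdc42 held in 14, with log2 values between -0.57 and -0.027.

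Proteins that hold or undo branches went in both directions. In S2 cells Cortactin, a stabiliser of branches (299 ± 26.2 CPM with dsRNA and 511 ± 13.5 CPM in controls; log2 -0.77 ± 0.11, edgeR adjusted p = 0.000634), and the coronin coro (-0.69 ± 0.11) were lower. PICK1, which binds the complex in mammals, was higher (11.4 ± 3.16 and 5.02 ± 1.24 CPM, log2 1.18 ± 0.28, adjusted p = 0.00816), of 5 tested. Of all genes tested in S2 cells, 26.6% were called lower and 28.5% higher. In brain pod1, a coronin-type crosslinker of actin and microtubules, was the 1 of 5 that passed, at 358 ± 50.9 CPM with shRNA and 714 ± 21.2 CPM in controls (-0.995 ± 0.11, adjusted p = 0.00551), a call that held in 15 of 16 alternatives. Of all genes tested in brain, 23.0% passed in either direction. A list of 6 genes joins the WASH complex, which drives the Arp2/3 complex on endosomes, with the activator Whamy. Of these 6, 2 were higher with dsRNA in S2 cells, beside 28.5% of all genes called higher. They were wash (68.1 ± 8.37 CPM with dsRNA and 34.97 ± 4.58 CPM in controls, log2 0.96 ± 0.14, adjusted p = 0.000864) and SWIP (0.36 ± 0.12, adjusted p = 0.0400). The wash call held in all 15 alternatives and the SWIP call in 6, and in brain 0 of the 6 were called.

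Of 11 genes of actin monomers and filament turnover, 4 were lower with dsRNA in S2 cells and 5 were lower with shRNA in brain, with 0 higher in each, beside 26.6% and 11.5% of all genes called lower in S2 cells and in brain. The profilin chic was at 673 ± 119.8 CPM with dsRNA and 1146 ± 72.6 CPM in S2 controls (log2 -0.77 ± 0.15, edgeR adjusted p = 0.00295), and at 1284 ± 144 CPM with shRNA and 2003 ± 130.3 CPM in control brains (-0.64 ± 0.10, adjusted p = 0.0105). The filament elongator ena was lower in both systems (-0.87 ± 0.10 in S2 cells and -0.53 ± 0.09 in brain), the capping protein subunit cpb in S2 cells (-0.52 ± 0.17, adjusted p = 0.0341) and the cytoplasmic actin Act5C in brain (-0.43 ± 0.12, adjusted p = 0.0407). The cpb call held in 9 of 15 alternatives (adjusted p up to 0.877) and the Act5C call in 6 of 16 (up to 0.278), while the brain calls of chic and ena held in 14 and 13.

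Across the 12 libraries, the 8 complex genes followed their common mean to different degrees. The correlation of each with the mean of the other 7 (Pearson r of standardised log2 CPM, a description over libraries that share 4 groups) was 0.98 for Arpc3B, 0.96 for Arpc4 and between 0.82 and 0.95 for Arpc5, Arpc2, Arpc3A, Arp3 and Arpc1, while Arp2 reached 0.43. The activators reached 0.79 (SCAR) and 0.61 (WASp). Among 7956 other genes of at least 5 CPM, Tbca (r = 0.99), Tapdelta (r = 0.99) and CG8314 (r = 0.99) followed the mean of the 8 most closely. The introns of Arpc2 hold 17 annotated snoRNA genes, which had at most 8 counts each in a library.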

How the data were processed

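Counts per gene were deposited by the authors as 1 table per library, with whole-number raw counts that are not normalised. Per the submitters' processing notes, cutadapt 1.13, STAR, HTSeq 0.6.1p1 and DESeq2 were used with genome build BDGP6; their settings, strand use and annotation release were not given in the sources used here. The BDGP6.54 annotation, which held 17599 of 17737 identifiers, gave symbols, positions and exon lengths; the other 138, with 0.995 to 1.39% of a library's counts, stayed in the tests. Replicate pairs differed by more than sampling noise (chi-square per degree of freedom 22.1 to 153.9).

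Counts were tested in R 4.3.3 with edgeR 4.0.16 (filterByExpr with a minimum count of 10, TMM, glmQLFit and glmQLFTest), separately in the 6 libraries of each system; the difference between systems and the contrast of controls came from 1 fit of all 12. Benjamini-Hochberg adjustment covered every gene tested, with calls under 0.05. SE is the log2 fold change divided by the root of F. CPM use TMM-scaled library sizes of 1 system, and CPM per kb those of all 12 libraries. The procedure was tested on simulated counts with as many genes raised as lowered. Such counts cannot decide which scaling is right for the S2 libraries. Alternatives were RLE, upper quartile and no further scaling, 2 other filters (none, or 5 CPM in 3 libraries), DESeq2 1.42.0, limma-voom (limma 3.58.1), the replicate number as a block, another set of libraries in the fit, each library left out, and the libraries with gut or salivary gland RNA left out together.

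Named are the 10 genes, Atx2, from each related list the up to 3 called genes with the largest change per system, and the 3 genes most like the mean of the complex; Drp1 and piwi were added for their overlap. HSPC300 and the S2 value of Hem were added after their values were seen. The members, lists and markers were chosen with earlier results of these data known. One list name (Arpin) and one marker name (Nplp2) found no identifier. Sequences were not used here.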

Additional observations from a re-analysis of the deposited data

Results flagged for a closer look

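The brain change differed from the S2 change, by the interaction test in edgeR over all 12 libraries, for 6 of the 10 genes and for 14 of the 44 related genes, where 41.1% of 11176 genes passed in either direction. With library totals alone the related genes turned from 8 higher and 6 lower to 3 higher and 23 lower. Of all genes tested, 19.7% were higher and 21.4% lower with TMM, and 11.6% and 39.5% with library totals alone. On the log2 scale, brain minus S2, the differences of the complex genes were 2.15 for Arpc3B, 0.71 for Arpc3A, 0.61 for Arp2, 0.55 for Arpc5, 0.48 for Arpc4 and 0.45 for Arpc2. Among the related genes they were positive for Cip4 (1.24), Vrp1 (1.15), trio (0.98), Rac2 (0.84), coro (0.65), Cortactin (0.61), Synd (0.53) and ena (0.34). They were negative for pod1 (-1.20), wash (-0.91), dock (-0.91), Hem (-0.63) and SWIP (-0.46). For nwk the difference was -2.49, a fitted value that depends on the prior count, since nwk had 0 to 6 counts in an S2 library. No group has enough libraries for a test of a single library far from the others.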

How the results depend on the processing

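In S2 cells, against 4 lower and 0 higher genes, upper quartile scaling gave 3 lower and 1 higher, and library totals alone gave 1 lower and 3 higher. Of all genes tested, 20.6% were lower and 37.6% higher with upper quartile scaling, and 14.6% and 54.2% with library totals alone. Leaving out 1 library gave 3 to 5 lower calls in S2 cells, beside 21.3 to 28.9% of all genes tested. The sign of uncalled S2 values turned with library totals alone for Arp3 (0.25), Arpc1 (0.39), Arpc4 (0.17), Arpc5 (0.15) and SCAR (0.32), with upper quartile scaling for Arpc1 (0.093) and SCAR (0.018), and without dsRNA library 1 for Arpc1, whose values without 1 library were -0.216 to 0.046; the cause was not tested. In brain DESeq2 called 3 genes, 1 higher and 2 lower, beside 16.3% and 15.5% of all genes tested. Without 1 library 0 to 2 were called, 0 or 1 of them higher and 0 or 1 lower. Over all genes, 494 to 2364 were called in brain without 1 library, and 1231 without the libraries with gut or salivary gland RNA, against 2397. Arpc3B in brain took values of -0.149 to 0.342 without 1 library.

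For the brain change minus the S2 change, 3 genes were called with library totals alone (1 higher and 2 lower), and 2 higher and 2 lower with upper quartile scaling. Of all genes tested, 11.6% were higher and 39.5% lower with library totals alone, and 16.6% and 27.2% with upper quartile scaling. With DESeq2, limma-voom or the stricter filter 1 was lower, beside 19.7 to 26.7% of all genes tested. Leaving out 1 library gave 3 to 6 calls, all higher, beside 16.7 to 20.6% of all genes tested. With library totals alone Arp3 (-0.39), Arpc1 (-0.10), Arpc2 (-0.035) and Arpc4 (-0.004) turned negative, as did Arp3 with upper quartile scaling (-0.061); without 1 library Arp3 was at -0.041 to 0.203. Between control brains and control S2 cells Arp2 turned to 0.048 with library totals alone. Under all 22 alternatives 8 to 10 genes were called, beside 57.1 to 80.1% of all genes tested.

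Same-numbered libraries deviated together in only some pairs (r = 0.38, 0.30 and -0.001 in S2 cells, 0.10, 0.25 and -0.47 in brain). Differently numbered pairs lay between -0.375 and 0.238 in S2 cells and between -0.486 and 0.425 in brain. With 3 libraries per group, these values cannot decide whether the numbers pair the libraries, and the main tests treated them as unpaired. Over all genes, the replicate block gave 5478 calls in S2 cells, against 4986. With the replicate block 6 genes were lower in S2 cells, 0 were called in brain, SCAR included (log2 -0.37, adjusted p = 0.0852), as were 0 of the related genes (of 40 calls among all genes, against 2397), and 6 were higher in the difference. Of the related genes 6 to 20 were lower in S2 cells and 0 to 20 in brain over the alternatives, against 15 and 14. Higher were 2 to 15 and 0 to 3, against 3 and 1. Over the same alternatives 14.6 to 29.7% of all genes tested were lower in S2 cells and 0.249 to 15.5% in brain. The shares called higher were 18.8 to 54.2% in S2 cells and 0.134 to 16.3% in brain.

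By raw counts without length the Arpc3B share was 10.2% with dsRNA and 23.0% in S2 controls, and 5.92% in shRNA brains and 5.62% in control brains. Arpc3B, with 63 to 127 counts per brain library, is the gene that depth limits most.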
